A study of Mus musculus with 78 samples.

Results

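Lung RNA of mice that had slept undisturbed for 9 h from lights on (9 arrays, 1 mouse each) was compared with lung RNA of mice that had slept for 6 h (7 arrays). These 16 arrays were chosen by their labels alone from the 78 lung arrays of the series, which also holds a baseline group at lights on, sleeping groups at 3 and 12 h, and sleep-deprived groups at 3, 6, 9 and 12 h. All groups were male C57BL/6 J mice aged 10 weeks (± 1), without genetic manipulation or drug, kept under alternating light and dark and fed only in the dark before the study. Both sleeping groups were left alone in their cages, whereas sleep deprivation was by gentle handling from lights on, and sleep was not separated from rest. Each array (Affymetrix Mouse Gene 1.0 ST) gave log2 intensities of 35556 probe sets, and a gene was read from its brightest probe set carrying only that symbol, which left 18820 genes. Whole lung is a mixture, so that fewer cells of a type and less RNA per cell could not be told apart.

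Most tissues run a circadian clock of their own. The factors BMAL1 (gene Arntl) and CLOCK or NPAS2 bind E-boxes and switch on the Per, Cry and Nr1d genes, whose proteins in turn shut down BMAL1 and CLOCK or the Arntl gene, so that activator and repressor transcripts swing in opposite phase through the day. In mice the hours of light are the hours of rest, and the later hours of sleep coincide with a turn of this cycle as well as with fasting in animals fed at night.

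Some arrays stood apart. The 9 h arrays carry the numbers 10 to 14 and 28 to 31 and the 6 h arrays 62 to 66, 79 and 80, so that each run of numbers holds only 1 of these groups and run and hour cannot be told apart within the sleeping mice. When the labelled conditions were laid along the array numbers, 16 arrays of the series were taken as out of order. They are those whose number falls at another condition's place, among them arrays 10 and 28 of the 9 h group and array 66 of the 6 h group, together with array 81 of sleep loss, which had no place. Array 80 of the 6 h group also had no place left but was not counted among them, and leaving it out as well took the genes called from 146 to 76. Labels were kept as given. Array 66 falls at the place of 3 h of sleep loss. Its Arntl was 9.04, against 8.80 to 9.36 on the arrays in order there and 6.95 to 7.49 on the other 6 h sleeping arrays. Arrays 10 and 28 fall at that of 12 h of sleep loss. Their Arntl was 6.57 and 6.51, against 6.25 to 7.51 there and 5.70 to 6.30 on the other 9 h sleeping arrays. Whether labels were exchanged was not tested. Arrays 79 and 80 held liver transcripts at high level, with albumin (Alb) at 13.22 and 12.94 against 6.67 to 11.95 in the other sleeping mice. Arrays 62 to 66 held transcripts of brown fat, with the thermogenic gene Ucp1 at 8.99 to 11.80 against 4.88 to 10.56 at 9 h. The lowest of these at 6 h, array 63, lay below array 28 of the 9 h group (10.56). The lung markers Sftpc, Sftpa1, Scgb1a1 and Ager were at 11.83 or more on each of the arrays, with array medians from 6.45 to 6.78. The main results are therefore given also without the out-of-order arrays, which leaves 6 mice at 6 h and 7 at 9 h, and without these and arrays 79 and 80, which leaves 4 and 7. What these transcripts and array numbers contributed to a difference was not tested beyond the values given.

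The stretches of DNA just before the start sites of a few genes that moved are shown because they hold, or lack, the short words to which clock factors bind. They are 120 bases long and end at the base before the start site given by RefSeq (GRCm38.p6), and capitals mark matches to the E-box CACGTG or to TAGGTCA, the core of the element bound by the ROR activators and REV-ERB repressors, on either strand. Ciart and Cry1 rose, and Arntl and Fam124b fell. Nfil3 passed the test only once the out-of-order arrays were left out.
Ciart, chr3:95882229-95882348, minus strand: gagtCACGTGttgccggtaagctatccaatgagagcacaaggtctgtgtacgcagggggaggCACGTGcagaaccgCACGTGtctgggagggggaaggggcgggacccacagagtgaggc
Cry1, chr10:85185055-85185174, minus strand: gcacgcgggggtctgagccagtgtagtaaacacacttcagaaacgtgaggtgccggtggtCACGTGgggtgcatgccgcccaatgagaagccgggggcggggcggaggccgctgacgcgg
Arntl, chr7:113207345-113207464, plus strand: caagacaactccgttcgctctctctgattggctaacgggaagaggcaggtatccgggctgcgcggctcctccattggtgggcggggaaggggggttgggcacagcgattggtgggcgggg
Fam124b, chr1:80213945-80214064, minus strand: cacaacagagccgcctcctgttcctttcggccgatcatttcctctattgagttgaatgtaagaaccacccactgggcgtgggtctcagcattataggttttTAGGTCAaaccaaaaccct
Nfil3, chr13:52981040-52981159, minus strand: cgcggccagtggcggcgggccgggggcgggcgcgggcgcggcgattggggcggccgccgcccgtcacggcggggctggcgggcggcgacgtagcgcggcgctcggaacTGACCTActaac
Among the 250 bases before the start, Ciart held CACGTG at positions -116, -58 and -44 and Cry1 at -60, counted back from the start site to the first base of the match on the gene's strand. TAGGTCA lay at -19 in Fam124b and, on the other strand, at -12 in Nfil3. Of 32851 promoters in the table, 6.02% held CACGTG, 2.23% held TAGGTCA and 2.34% held TTATGTA, the core of the D-box bound by HLF, TEF and NFIL3. CACGTG also stood before Bhlhe41 (-153), both starts of Tef (-127 and -138) and 1 of the listed starts each of Per1 (-166) and Tspan4 (-51), and before Mapk12 (-31), which rose by 0.33. It stood as well before genes that fell, namely Ndufv1 (-169), Ppp1r3c (-104) and 1 of the starts of Mlxipl (-98). TTATGTA stood before Per3 at -205 and -158 and before 1 of the starts of Rbm47 (-214), which fell by 0.32. CACGTG thus stood before genes of either direction. None of the 3 words was found in this window of Hlf or Cry2 or before either start of Arntl, which says only that these letters are absent there. Wee1 and Per2 had no entry.

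At an adjusted p under 0.01 (limma over all 78 arrays, Benjamini-Hochberg over all 35556 probe sets), 79 of 18820 genes (0.42%) were higher and 117 (0.622%) lower at 9 h than at 6 h of sleep, and 4220 genes had an unadjusted p under 0.05. The clock gene Ciart had the largest called rise, and Elovl3 and Gys2 had the largest called falls (-3.02 and -2.35). The median difference over all genes was 0.03. Without the out-of-order arrays 66 genes (0.351%) were higher and 80 (0.425%) lower, of which 42 and 59 were called with all arrays too. Without these and arrays 79 and 80 the counts were 18 and 27, with 14 and 15 shared. The values of the 9 h mice lay entirely above those of the 6 h mice for 47 genes (0.25%) and entirely below for 30 (0.159%). In the mice left without the out-of-order arrays and arrays 79 and 80, fewer in number, 161 (0.855%) and 273 (1.45%) did not overlap.

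Of 6 activators of the clock measured, 1 fell with all arrays, 3 without the out-of-order arrays and 0 without arrays 79 and 80 alone. Arntl passed the test with all arrays, and Clock and Npas2 joined it without the out-of-order arrays. Leaving out arrays 79 and 80 alone ended the call of Arntl (adjusted p = 0.0281, limma). Arntl, which encodes the partner of CLOCK, ran from 6.95 through a median of 7.43 to 9.04 at 6 h and from 5.70 through 6.14 to 6.57 at 9 h. Every 9 h mouse lay below every 6 h mouse, and the single value above 7.5 at 6 h was that of array 66. The level of Arntl at 6 h was 2.59-fold that at 9 h (log2 difference -1.37 ± 0.31 SE, limma adjusted p = 0.00718). In the mice left without the out-of-order arrays and arrays 79 and 80, the difference was -1.13 ± 0.15 (adjusted p = 1.82e-06).

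Npas2, which can take the place of CLOCK, ran from 7.13 through 7.27 to 9.61 at 6 h and from 6.16 through 6.42 to 7.26 at 9 h, a difference of -1.08 ± 0.34 that did not pass (limma adjusted p = 0.0521). Array 66 had the highest value at 6 h, and without the out-of-order arrays the difference was -0.92 (adjusted p = 2.19e-09). Clock itself differed little in size, with -0.30 ± 0.07 over all arrays (adjusted p = 0.013) and -0.33 without the out-of-order arrays (adjusted p = 0.000461). Arntl2, Rora and Rorb differed by 0.02, 0.13 and 0.09 and passed in neither set of arrays. The list's median was -0.14, against 0.03 for all genes.

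Of 12 repressors of the clock measured, 3 rose with all arrays, 6 without the out-of-order arrays and 1 without arrays 79 and 80 alone, and the list's median difference was 0.58. Ciart (also Gm129 or Chrono), a repressor of BMAL1, had the smallest adjusted p, shared with Ifit3. It ran from 8.20 through 8.47 to 8.59 at 6 h and from 8.64 through 9.77 to 9.95 at 9 h, and the groups did not overlap. The level at 9 h was 2.22-fold that at 6 h (1.15 ± 0.17, limma adjusted p = 3.96e-05). The lowest 9 h values of Ciart were those of arrays 28 (8.64) and 10 (9.17), and without the out-of-order arrays the difference was 1.34 (adjusted p = 2.1e-13). By run of array numbers, mean Ciart was 9.70 and 9.46 in the runs with 9 h mice and 8.51 and 8.29 in the runs with 6 h mice.

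Cry1 and Cry2, the cryptochromes that close the feedback loop, rose together. Cry1 ran from 6.67 through 7.05 to 7.37 at 6 h and from 7.26 through 7.68 to 8.47 at 9 h, with the groups overlapping slightly. Its level at 9 h was 1.67-fold that at 6 h (0.74 ± 0.16, limma adjusted p = 0.00605). Cry2 ran from 9.31 through 9.42 to 9.69 at 6 h and from 9.72 through 9.83 to 10.17 at 9 h without overlap. The change of Cry2 was smaller, 1.33-fold (0.41 ± 0.09, adjusted p = 0.00642). Without the out-of-order arrays and arrays 79 and 80, Cry1 passed (0.52, limma adjusted p = 0.00534) and Cry2 did not (0.28, adjusted p = 0.0124).

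The Per genes, the other arm of the repressor complex, showed differences of similar or larger size with wider spread. Per2 ran from 7.89 through 8.44 to 8.66 at 6 h and from 9.02 through 9.32 to 9.87 at 9 h, and the groups did not overlap. The difference of 1.08 ± 0.27 missed the threshold with all arrays (limma adjusted p = 0.0148) and passed without the out-of-order arrays (0.88, adjusted p = 4.72e-07) and in the mice left without arrays 79 and 80 as well (0.70 ± 0.12, adjusted p = 0.000394). Per3 ran from 8.03 through 9.24 to 9.47 at 6 h and from 9.55 through 9.98 to 10.22 at 9 h. It behaved like Per2 in the test, with 0.85 ± 0.23 (adjusted p = 0.0218) and 0.67 without the out-of-order arrays (adjusted p = 2.32e-08). Per1 differed by 0.82 ± 0.26 and passed in neither (adjusted p = 0.0622 and 0.0202).

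Bhlhe41 (Dec2), a repressor that competes for E-boxes, differed by 0.78 ± 0.19 with all arrays (limma adjusted p = 0.0136) and by 0.81 without the out-of-order arrays (adjusted p = 8.35e-08). Its partner Bhlhe40 differed by 0.26 ± 0.12 and did not pass in either. The 10 clock genes that passed in neither set of arrays, Per1 and Bhlhe40 among them, differed by between -0.07 and 0.82. The kinase genes Csnk1d and Csnk1e, which act on the PER proteins, were at the lower end of the changes, with 0.01 and 0.15.

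The output factors carry the phase of the clock to other genes. Of 6 measured (Dbp had no probe set of its own), Hlf and Wee1 rose with all arrays, and the list's median was 0.63. Hlf, a factor that binds the D-box, ran from 7.44 through 8.61 to 8.82 at 6 h and from 9.04 through 9.27 to 9.43 at 9 h. The groups did not overlap, array 66 had the lowest value, and the level at 9 h was 1.73-fold that at 6 h (0.79 ± 0.18, limma adjusted p = 0.00673). Wee1, a kinase that holds cells before mitosis, ran from 8.20 through 8.70 to 8.91 at 6 h and from 9.09 through 9.32 to 9.83 at 9 h, again without overlap. The change was 1.68-fold (0.75 ± 0.16, adjusted p = 0.00442).

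Without the out-of-order arrays Tef, a close relative of Hlf, and the deubiquitinase gene Usp2 also rose (0.45 and 0.64, limma adjusted p = 0.0052 and 0.00742), and Nfil3, which opposes HLF and TEF at the D-box, fell (-0.59, adjusted p = 0.000834). With all arrays these differed by 0.53, 0.72 and -0.62 and did not pass. Nampt, the enzyme that makes the precursor of NAD, differed by 0.16 ± 0.08. Rbm3 and Cirbp, the RNA-binding proteins that rise in the cold, differed by 0.13 ± 0.11 and 0.25 ± 0.17 and did not pass in any set of arrays named here.

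Over the 3 clock lists, 6 of 24 genes passed with all arrays, 14 without the out-of-order arrays, and 10 without these and arrays 79 and 80, against 1.04%, 0.776% and 0.239% of all genes. The values of the groups did not overlap for 8 of the 24 genes, 7 higher and 1 lower at 9 h. With liver and fat transcript levels as covariates, 2 of the 24 passed, beside 0.0797% of all genes. These were Ciart (0.97, limma adjusted p = 0.00206) and Usp2 (0.88, adjusted p = 0.00405). Arntl, Cry1 and Cry2 did not (-1.38, 0.65 and 0.40, adjusted p = 0.0279, 0.024 and 0.0289), nor did Hlf and Wee1. With these covariates and no out-of-order arrays, Arntl, Cry1 and Cry2 passed (-1.32, 0.56 and 0.31). With a random block for runs of array numbers, 3 of the 24 passed. Leaving out only arrays 79 and 80, and so keeping array 66 among 5 mice at 6 h, left Ciart as the only clock gene past the threshold (1.09, limma adjusted p = 0.00118), although Arntl and Hlf still differed by -1.40 and 0.86. The plot of clock genes by hour shows the place of array 66 among them.

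**Figure D1:**
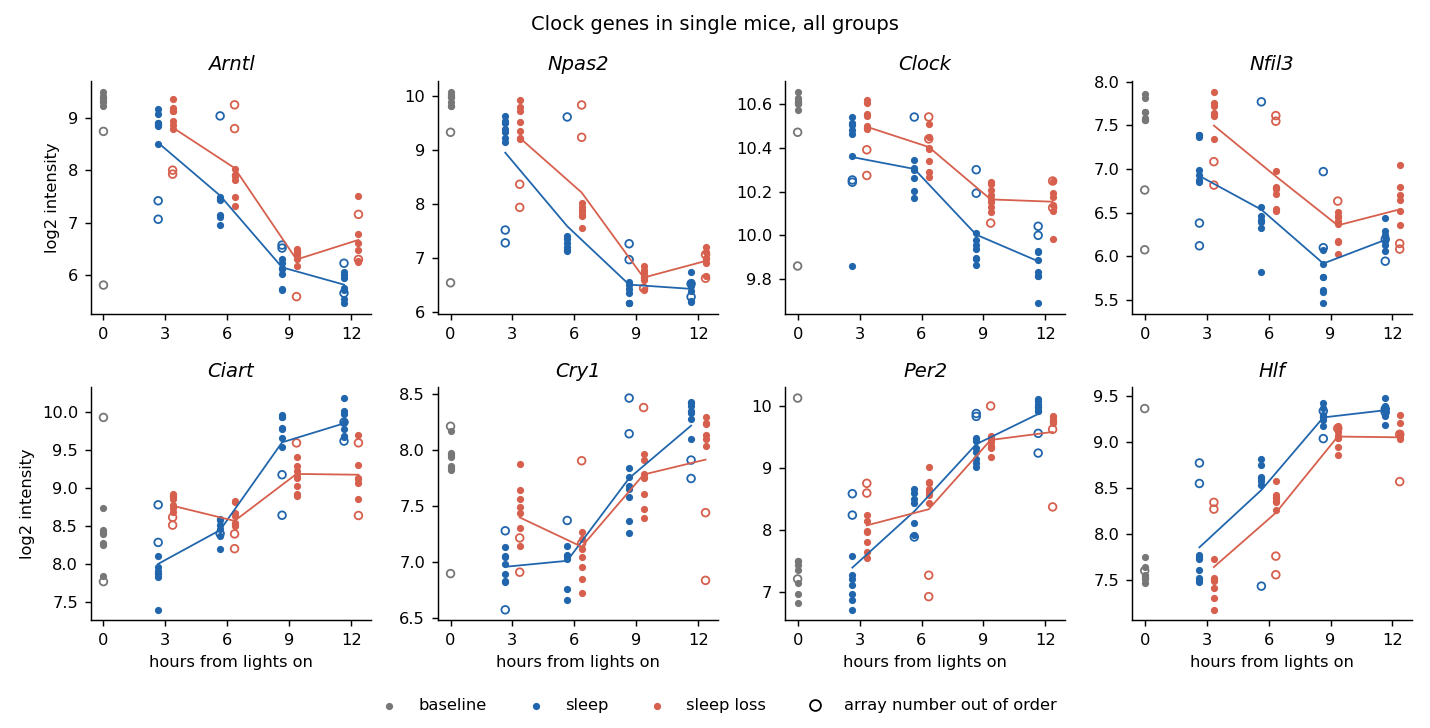
Log2 intensity of 8 clock genes in each mouse against hours from lights on, with baseline in grey, sleep in blue, sleep loss in orange, open circles for the arrays whose number is out of order, and lines through group means. At 6 h of sleep the open circle is array 66, at 9.04 for Arntl where the other 6 mice lie between 6.95 and 7.49.

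The same hours of sleep deprivation were measured in mice that share no array with the sleeping mice. Their 9 h arrays lie in the same runs of array numbers as the 9 h sleeping arrays and their 6 h arrays in those of the 6 h sleeping arrays, so that run and hour cannot be told apart in this step either. Of all genes 4.9% passed between 6 and 9 h of sleep loss, where 273 genes (1.45%) were higher and 649 (3.45%) lower at 9 h. Arntl differed by -1.75 ± 0.29 (limma adjusted p = 0.000162), Per2 by 1.11 ± 0.25 (adjusted p = 0.00294), Cry1 by 0.64 ± 0.15 (adjusted p = 0.00404) and Hlf by 0.83 ± 0.17 (adjusted p = 0.00102). Of the 24 clock genes 9 passed in the sleep-loss step, and none passed in the test of the difference between the steps. Out-of-order arrays stood in the sleep-loss step too, 51 and 74 at 6 h and 20 at 9 h. Arntl was at 9.25 and 8.80 on arrays 51 and 74, against 7.32 to 8.03 on the other 6 h arrays there. On array 20 it was at 5.58, against 6.16 to 6.50 on the other 9 h arrays there. The differences given here include these arrays. Without all out-of-order arrays 192 of 18820 genes were higher and 464 lower at 9 h of sleep loss.

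Ciart differed between the steps when some arrays were left out. It differed by 0.62 ± 0.16 in sleep loss (limma adjusted p = 0.00654), with values between 8.20 and 8.83 at 6 h and between 8.90 and 9.59 at 9 h. The sleep step exceeded this by 0.53 ± 0.23, which did not pass with all arrays (adjusted p = 0.245). Without the out-of-order arrays it exceeded it by 0.85 (adjusted p = 0.00442), and this and 3 immune genes were the 4 (0.0213%) that passed there, Tyrobp (0.43), Alox5ap (0.42) and Traf1 (0.43) beside Ciart. With arrays 79 and 80 left out as well, 0 genes passed limma's test and 2165 had an unadjusted p under 0.05.

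With all arrays 0 genes (0%) passed limma's test of the difference between the steps, while 2894 had an unadjusted p under 0.05. The smallest p-values were those of Psmf1 (0.43 ± 0.09), Arrdc1 (0.46 ± 0.10), Alox5ap (0.39 ± 0.08), the transcript 2310011J03Rik (0.45 ± 0.10) and the amylase Amy1 (-1.40 ± 0.31), with limma adjusted p between 0.043 and 0.0509. The first 4 were lower at 9 h in sleep loss (-0.23 to -0.29) and differed by 0.14 to 0.20 in sleep, where they did not pass.

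**Figure D2:**
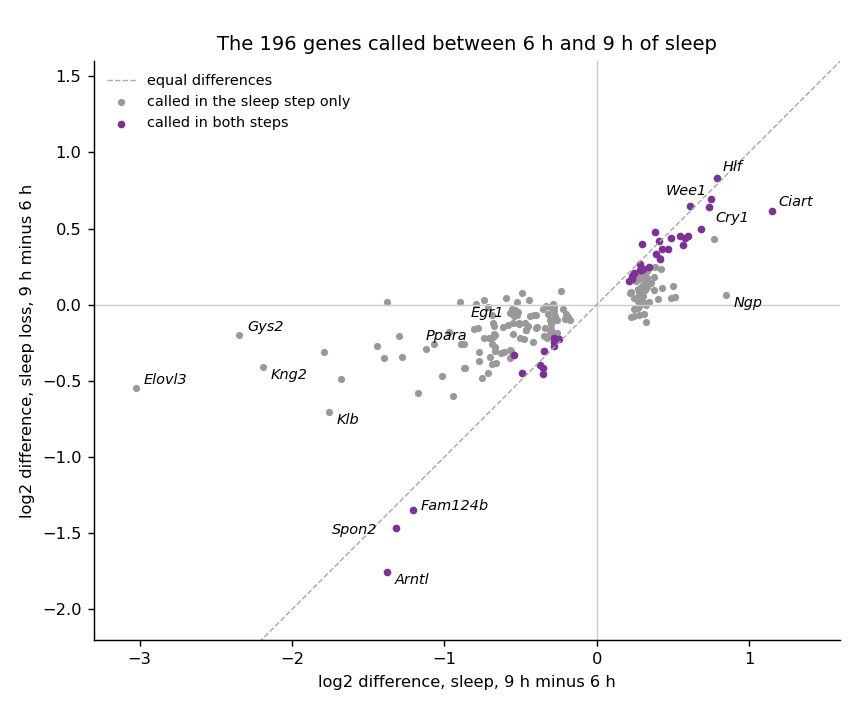
Log2 difference between 9 and 6 h in sleep (horizontal) and in sleep loss (vertical) for the 196 genes called in sleep, purple where the gene was called in both; the dashed line marks equal differences. The clock genes Arntl (-1.37 and -1.75) and Hlf (0.79 and 0.83) lie nearer the line than the clock gene Ciart (1.15 and 0.62). Elovl3 (-3.02 and -0.55) and Gys2 (-2.35 and -0.20) lie far from it.

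Of the 79 genes higher at 9 h of sleep, 70 also had a positive difference in sleep loss and 29 were called there. Of the 117 lower genes, 107 had a negative difference and 13 were called. Over all genes 49.7% were higher and 50.3% lower in the sleep-loss step. As both steps fall on the same change of runs, what hour and run contributed to these shared directions cannot be told apart.

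The 10 largest called falls were those of Elovl3, Gys2, Kng2, Orm1, Klb, Ephx2, Paqr9, Mlxipl, Amy1 and Arntl. Gys2, the glycogen synthase of liver, ran from 5.42 through 7.33 to 9.71 at 6 h and from 4.66 through 4.92 to 5.46 at 9 h. The groups overlapped only at array 63, and the difference was -2.35 ± 0.39 (limma adjusted p = 0.000306). Elovl3, which lengthens fatty acids in brown fat and liver, ran from 6.06 through 8.20 to 10.60 at 6 h and from 4.42 through 4.69 to 6.45 at 9 h (-3.02 ± 0.71, adjusted p = 0.00899).

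Transcripts of other organs also differed in level between the arrays. Their relation to these 10 falls was not tested beyond the fits given below. The liver list, 15 genes measured, lay between -1.21 and 5.61 at 6 h and between -1.25 and 1.51 at 9 h (mean of log2 values centred per gene), with 5.61 and 4.66 on arrays 79 and 80. The fat list, 13 genes measured, lay between -0.63 and 1.67 at 6 h, with a median of 0.65, and between -0.96 and 0.61 at 9 h, with a median of -0.43. No gene of either list was called, and their median differences were -1.07 for liver and -0.74 for fat. Gys2 was at 9.71 and 8.18 on arrays 79 and 80, and at 6.48 to 7.80 on arrays 62 and 64 to 66.

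With the liver and fat levels as covariates, Gys2 still passed (-1.28, limma adjusted p = 0.0081), and Elovl3 did not (-1.03, adjusted p = 0.19). In the mice left without the out-of-order arrays and arrays 79 and 80 the difference of Gys2 was -1.46 ± 0.45 (adjusted p = 0.127) and that of Elovl3 -2.49 ± 0.85 (adjusted p = 0.183). The kininogen gene Kng2, the acute-phase gene Orm1, the FGF co-receptor gene Klb, the epoxide hydrolase gene Ephx2, Paqr9, the carbohydrate-sensing factor gene Mlxipl and Amy1 differed there by -0.75 to -1.21 with adjusted p of 0.0695 or more. Orm1 and Amy1 belong to families of near-identical copies, so that their probe sets may read more than 1 gene.

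**Figure D3:**
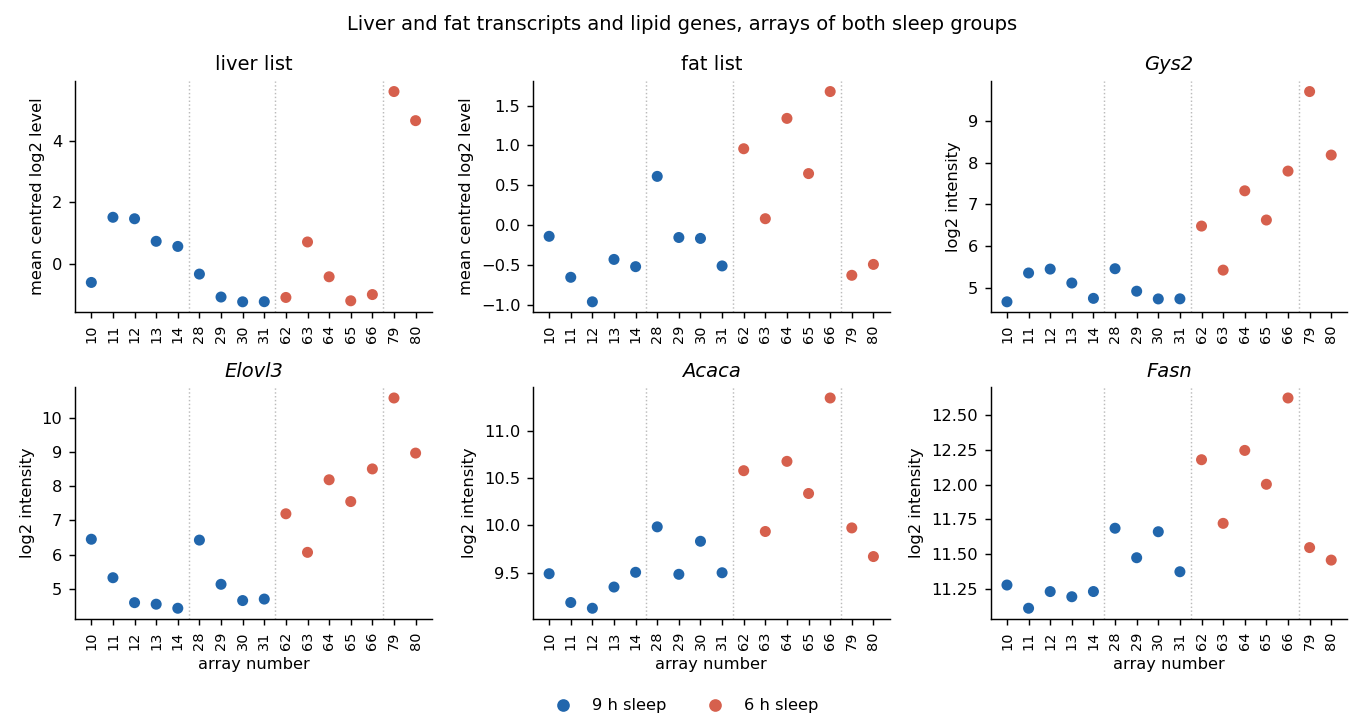
Level of the liver and fat lists (mean of log2 values centred per gene) and log2 intensity of Gys2, Elovl3, Acaca and Fasn on each array of the 9 h (blue) and 6 h (orange) sleeping mice, in order of array number, with dotted lines between the runs of numbers. Liver transcripts are high on arrays 79 and 80 (5.61 and 4.66), fat transcripts on arrays 62 to 66 (0.08 to 1.67).

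Of 20 genes of fatty acid synthesis measured, 4 fell with all arrays and 2 without the out-of-order arrays, beside 0.622% and 0.425% of all genes. The list's median difference was -0.45 with all arrays. Acaca, whose product makes malonyl-CoA, ran from 9.67 through 10.34 to 11.35 at 6 h and from 9.12 through 9.49 to 9.98 at 9 h (-0.87 ± 0.18, limma adjusted p = 0.00265). Fasn, fatty acid synthase, ran from 11.46 through 12.00 to 12.62 at 6 h and from 11.11 through 11.28 to 11.69 at 9 h (-0.61 ± 0.13, adjusted p = 0.00442). The groups overlapped for both genes, with array 80 lowest and array 66 highest at 6 h. Without the out-of-order arrays Acaca passed (-0.77, adjusted p = 0.00807) and Fasn did not (-0.53, adjusted p = 0.0215). Both genes passed without arrays 79 and 80 (-1.08 and -0.79), without these and the out-of-order arrays (-0.96 and -0.71, adjusted p = 0.00439 and 0.00647) and with the liver and fat covariates (-0.49 and -0.34, adjusted p = 0.0081 and 0.00544).

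Me1, the malic enzyme that supplies NADPH for synthesis, fell by 0.69 with all arrays (limma adjusted p = 0.00784) and did not pass with the covariates (adjusted p = 0.105). Without arrays 79 and 80, 3 of the list's 20 genes were called lower, and with the covariates 2, beside 0.117% and 0.0478% of all genes. In sleep loss none of the list was called (median -0.22), and Acaca and Fasn differed there by -0.41 and -0.31. The test of the difference between the steps gave -0.45 ± 0.24 for Acaca (adjusted p = 0.354) and -0.29 ± 0.18 for Fasn (adjusted p = 0.425).

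Genes of fat burning and the fasting response had a median difference of -0.36. Beside 0.622% of all genes, 3 of the 24 measured were called lower. These were Ppara, the receptor that switches on fat oxidation (-1.12 ± 0.21, limma adjusted p = 0.00152), the electron carrier gene Etfdh (-0.54 ± 0.11, adjusted p = 0.00306) and the acyl-CoA dehydrogenase gene Acadm (-0.52 ± 0.12, adjusted p = 0.0098). Ppara ran from 7.60 through 8.38 to 9.92 at 6 h and from 7.21 through 7.38 to 8.01 at 9 h, with the highest value at 9 h on array 28. None of the 24 passed with the liver and fat covariates, where the list's median was -0.11, nor without the out-of-order arrays and arrays 79 and 80, where it was -0.33. Cyp51 and Idi1 of cholesterol synthesis fell (-0.57 and -0.46), 2 of 22 with a median of -0.27, beside 0.622% of all genes. Neither passed without arrays 79 and 80 (limma adjusted p = 0.111 and 0.254).

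Of 26 immediate early genes, which respond to stimuli within minutes, 2 fell over all arrays and 5 without the out-of-order arrays. The count was also 5 with arrays 79 and 80 left out as well. Of all genes 0.622%, 0.425% and 0.143% were lower in these sets of arrays. The list's median was -0.08 with all arrays. Leaving out arrays 79 and 80 alone, which keeps array 66, left none past the threshold. Egr1, a zinc-finger factor, ran from 7.61 through 8.60 to 9.30 at 6 h and from 7.47 through 7.75 to 8.26 at 9 h. The groups overlapped through array 66, the lowest at 6 h, and the difference was -0.78 ± 0.17 (limma adjusted p = 0.00441), or -1.05 without the out-of-order arrays (adjusted p = 1.19e-05). Ccn1, a matricellular protein, ran from 10.29 through 10.92 to 11.25 at 6 h and from 9.84 through 10.32 to 10.68 at 9 h (-0.57 ± 0.12, adjusted p = 0.00265).

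In the mice left without the out-of-order arrays and arrays 79 and 80, Nr4a1, Nr4a3 and Btg2 of this list and the cyclooxygenase gene Ptgs2 of the NF-kB list passed as well. They are named after their values were seen. Nr4a1, an orphan nuclear receptor, lay between 9.42 and 10.77 in the 4 mice at 6 h and between 8.72 and 9.22 in the 7 mice at 9 h (-1.23 ± 0.23, limma adjusted p = 0.00183). Ptgs2 lay between 9.07 and 9.58 and between 8.50 and 8.90 (-0.66 ± 0.09, adjusted p = 4.08e-06). With all arrays Nr4a1 differed by -0.71 and Ptgs2 by -0.26, and neither passed (adjusted p = 0.0616 and 0.118). The list's median was -0.20 in the mice left. In sleep loss 3 of the 26 were lower, beside 3.45% of all genes, and Egr1 differed by -0.15 ± 0.16.

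Among other genes that rose, Tspan4, a tetraspanin of the cell membrane, ran from 9.36 through 10.16 to 10.30 at 6 h and from 10.56 through 10.80 to 11.04 at 9 h without overlap (0.77 ± 0.14, limma adjusted p = 0.000951). Ifit3, an interferon-induced antiviral gene, ran from 9.67 through 9.85 to 10.03 and from 10.21 through 10.37 to 10.75, also without overlap (0.60 ± 0.09, adjusted p = 3.96e-05). Its near copy Ifit3b has a probe set of its own and rose by 0.51 ± 0.11 (adjusted p = 0.00601), but signals of the copies may mix. Ifit3 was 1 of 31 genes of the interferon-induced list and the only one of them called, and Ifit3b is not in the list. Ifit3 rose in sleep loss too (0.45 ± 0.08, adjusted p = 0.000344).

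Cys1, a protein of the primary cilium, rose by 0.68 ± 0.13, Mthfd1l of mitochondrial folate metabolism by 0.61 ± 0.14, and the neuropeptide Y receptor gene Npy1r by 0.58 ± 0.11 (limma adjusted p = 0.000951, 0.00756 and 0.00175). Npy1r did not pass without the out-of-order arrays (adjusted p = 0.0112) or without arrays 79 and 80 (adjusted p = 0.0152), and was at 0.38 without both (adjusted p = 0.118). Cys1 and Mthfd1l passed without the out-of-order arrays and did not without arrays 79 and 80 alone (adjusted p = 0.0155 and 0.0358). Ngp, a granule protein of immature neutrophils, ran from 6.84 through 7.66 to 8.00 at 6 h and from 8.10 through 8.26 to 8.86 at 9 h (0.85 ± 0.20, adjusted p = 0.00787). It did not pass without the out-of-order arrays (adjusted p = 0.0253), and it was the only 1 of 16 neutrophil and monocyte genes called, with a list median of -0.01. The B-cell gene Vpreb3 rose by 0.50 ± 0.11 as 1 of 15 B-cell genes, and the capillary gene Car4 by 0.21 ± 0.04 as 1 of 18 endothelial genes. Neither Vpreb3 nor Car4 passed without the out-of-order arrays and arrays 79 and 80 (adjusted p = 0.0413 and 0.0961).

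Fam124b, Spon2 and Leo1 fell in both steps. They lie outside the rule for named genes and were picked after their values were seen. Fam124b ran from 6.93 through 7.51 to 8.25 at 6 h and from 5.80 through 6.12 to 6.96 at 9 h, with hardly any overlap. It fell by 1.21 in sleep (limma adjusted p = 0.000266) and by 1.35 in sleep loss (adjusted p = 1e-05), and with the liver and fat covariates by 1.28. Spon2, a secreted matrix protein, fell by 1.32 (adjusted p = 0.00711) and by 1.47 in sleep loss. Leo1, a part of the PAF1 complex of transcription, fell by 0.49 and 0.45, and like Fam124b held TAGGTCA before its start, at -63.

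In the stress and redox lists single genes fell, beside 0.622% of all genes, and the medians of the chaperone, endoplasmic reticulum folding, integrated stress response and antioxidant lists were -0.07, -0.04, -0.06 and -0.06. The mitochondrial chaperone gene Hspa9 fell by 0.47 (1 of 44 chaperones), the chaperone gene Hyou1 of the endoplasmic reticulum by 0.34 (1 of 42) and the transaminase gene Gpt2 by 0.70 (1 of 27 of the integrated stress response). Of 44 antioxidant enzymes, the glutathione transferase genes Gstm4 and Gstm7 fell by 0.50 and 0.75, both highest on array 79, and their family has near-identical members. Ndufv1, of complex I, fell by 0.48 as 1 of 70 genes of the respiratory chain, whose median was -0.17. None of these 6 passed without the out-of-order arrays and arrays 79 and 80. Genes that the study discusses for lung, Hspa5, Hspa4, Pdk1, Gstt1, Gstt2 and Txnrd3, differed by between -0.20 and 0.16 and did not pass.

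Of 40 lists of pathways and cell types, 24 had no gene called. Of 19 cell type lists 16 had none, and the medians of the 16 lists other than liver, fat and skeletal muscle lay between -0.18 and 0.18. The alveolar type 1 and type 2 lists differed by 0.04 and 0.06. Skeletal muscle transcripts varied widely in both groups, between -1.22 and 2.51 at 6 h and between -1.07 and 2.50 at 9 h, with a median difference of -0.27. As a measure of signal from genes that lung hardly uses, 1 of 1157 olfactory and vomeronasal receptor genes (Olfr124) was called higher, with a median difference of 0.05. In a separate list of 307 microRNA genes, 3 (Mir185, Mir483 and Mir532) were called higher, with a median of 0.07, beside 0.42% of all genes. In the sleep-loss step 42 of the 1157 receptor genes were called higher and 0 lower (median 0.10). There 11 of the 307 microRNA genes were higher and 0 lower (median 0.04), beside 1.45% of all genes higher and 3.45% lower. What run contributed to these calls was not tested.

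**Figure D4:**
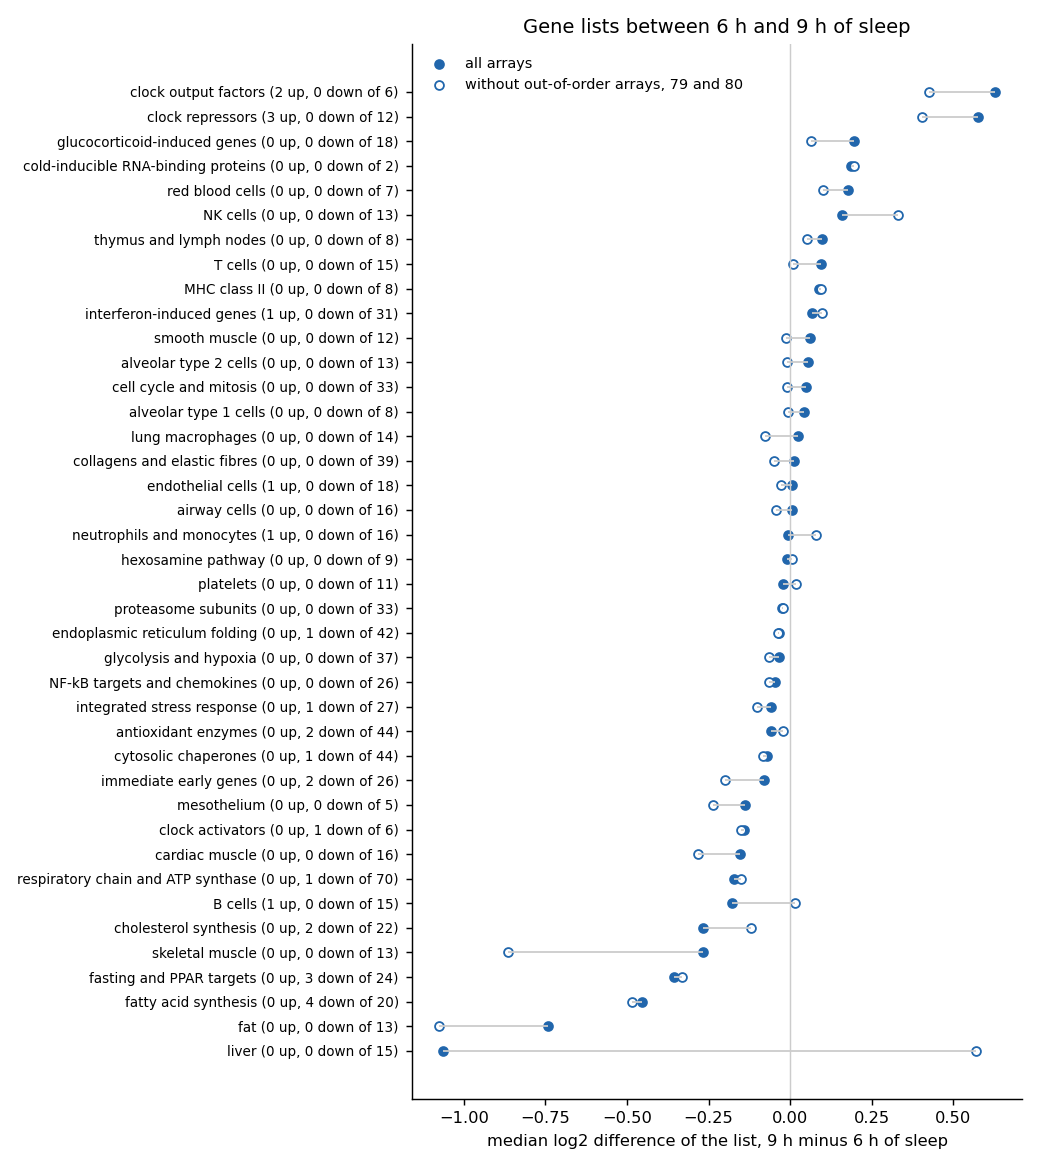
Median log2 difference, 9 h minus 6 h of sleep, of each gene list with all arrays (filled) and without the out-of-order arrays and arrays 79 and 80 (open); brackets give the genes called with all arrays of those measured. The clock repressors (0.58 and 0.41) and output factors (0.63 and 0.43) lie to the right in both, and the liver list moves from -1.07 to 0.57.

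How many genes passed depended on the 6 h arrays. Without arrays 79 and 80, 10 genes (0.0531%) were higher and 22 (0.117%) lower, and without array 79 alone 11 and 23. Without array 63, the 6 h array of run 3 with the least fat transcript, 122 were higher and 185 lower. With the liver and fat covariates 15 genes (0.0797%) passed, 6 (0.0319%) higher and 9 (0.0478%) lower, of which 14 were among the 196. A random block for the runs of array numbers, with a correlation of 0.02 within runs, left 45 and 81. That correlation was estimated after the group means were fitted. It therefore cannot measure a shift between the runs that hold the 9 h mice and those that hold the 6 h mice.

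A few genes kept their call through several of these changes. Of the 196 genes, 29 were called also without the out-of-order arrays and arrays 79 and 80, and 9 in that fit, without arrays 79 and 80 alone and with the liver and fat covariates. These 9 were Ciart, Ifit3 and Efhd2 among the higher genes and Acaca, Fasn, Npc1, Ank3, Lars2 and Fam124b among the lower. Of the 9, only Fasn did not pass when the out-of-order arrays alone were left out, and it passed in 22 of 32 other settings. The settings that picked the 9 were chosen after the data were seen. Ciart and Fam124b passed in 31 of the 32 other settings, all but the fit to the 16 sleeping arrays alone. In that fit only the glycogen-targeting gene Ppp1r3c (-0.71) and the retinoid receptor gene Rxrg (-0.84) passed, both with limma adjusted p = 0.0085.

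**Figure D5:**
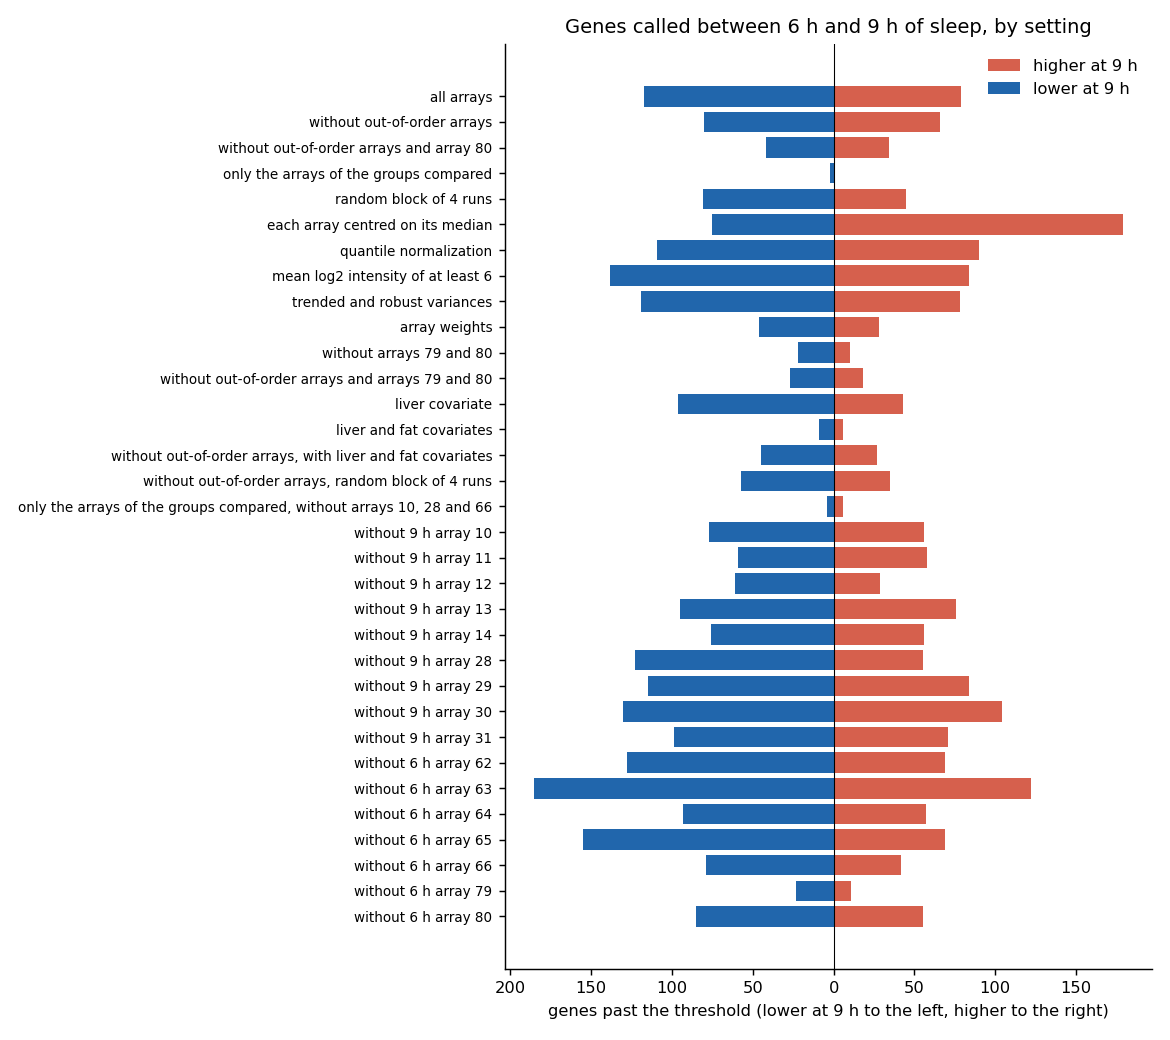
Number of genes past an adjusted p of 0.01 that were higher (right) or lower (left) at 9 h than at 6 h of sleep, with all arrays, under other settings and without each array in turn. Counts fall from 79 and 117 with all arrays to 11 and 23 without array 79 and rise to 122 and 185 without array 63.

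Spread within groups was larger at 9 h for most genes. The median SD was 0.129 at 6 h and 0.161 at 9 h, and 34.1% of genes had the larger SD at 6 h. Without the out-of-order arrays the medians were 0.125 and 0.142, with 41.4% of genes larger at 6 h. Both sets of arrays keep arrays 11 and 29 of the 9 h group, whose medians over all probe sets were 6.45 and 6.58. The medians of the 6 h arrays lay between 6.68 and 6.77. Arrays were not normalized again here, and what such shifts of whole arrays contributed to the spread was not tested. Gys2 and Elovl3 were the reverse, with wider ranges at 6 h.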

How the data were processed

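Each mouse gave 1 lung array (Affymetrix Mouse Gene 1.0 ST). The authors normalized the scans by robust multi-array averaging (RMA), and the deposited values are log2 intensities that lost their decimal point, a unit recorded as other. The point was restored, giving 2.27 to 13.85, and nothing further was done. Arrays have no read depth, and the number of mice sets the precision.

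Groups came from titles. A model of 9 group means over 78 arrays was fitted in limma 3.58.1 (R 4.3.3) with empirical Bayes variances, Benjamini-Hochberg adjustment over 35556 probe sets and a threshold of 0.01. SE is that of the fit. Of the probe sets 21218 carried 1 symbol, 1881 several and 12457 none. Named genes were all clock and cold-inducible genes, the 10 largest called differences each way, up to 3 called members of every other list, the 5 smallest p-values of the difference between the steps, and genes the study names. The members and lists were chosen with earlier results of these data known. Settings that leave out arrays 79 and 80, use organ covariates, or combine changes were chosen after seeing the data. In simulated data (9 against 7 mice, 35556 probe sets) 31.3% of changes of 0.25 log2, 80.6% of 0.5 and 92.4% of 1 were recovered. Of 69 named genes 54 had a RefSeq promoter. P-values measure the spread between arrays of separate mice.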

Additional observations from a re-analysis of the deposited data

Results flagged for a closer look

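In some groups the highest or lowest array lay far from the others relative to the group's range, which chance gives for about 1 in 20 groups. In the 6 h group array 66, an out-of-order array, was highest for Arntl (9.04), Npas2 (9.61), Nfil3 (7.77) and Hspa5 (11.93) and lowest for Per3 (8.03), Nr1d2 (8.94), Bhlhe41 (7.39), Hlf (7.44), Cirbp (9.05), Rbm3 (11.19), Tspan4 (9.36) and Mthfd1l (6.42), all in log2 intensity. In mean centred log2 level of gene lists it was highest for clock activators (0.61), cytosolic chaperones (0.27) and endoplasmic reticulum folding (0.13), and lowest for clock repressors (-0.44), cold-inducible RNA-binding proteins (-0.65), neutrophils and monocytes (-0.27) and platelets (-0.26).

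Array 79, the one with the highest liver level, was highest at 6 h for Gstm4 (10.47), Gstm7 (10.04), antioxidant enzymes (0.37) and proteasome subunits (0.11), and lowest for cell cycle genes (-0.22) and alveolar type 2 genes (-0.21).

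In the 9 h group array 28 was highest for Ephx2 (7.96), Ppara (8.01), cytosolic chaperones (0.11), the integrated stress response (0.21), the respiratory chain (0.13) and thymus and lymph node genes (1.09). Array 10 was highest for Nfil3 (6.97), array 30 for Me1 (10.67), and array 11 was lowest for Cys1 (6.77). What set these arrays apart was not tested.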

How the results depend on the processing

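The 196 genes called between 6 and 9 h of sleep became 76 without the out-of-order arrays and array 80, 2 with only the sleeping arrays in the fit, 126 with a random block of runs and 74 with array weights. Among settings chosen after seeing the data they became 32 without arrays 79 and 80, 45 without these and the out-of-order arrays, 15 with liver and fat covariates, 72 with these covariates and no out-of-order arrays, 92 with a random block and no out-of-order arrays, and 10 in the sleeping arrays alone without arrays 10, 28 and 66. Leaving out each mouse in turn gave 34 (without array 79) to 307 (without array 63), and 117, 90 and 121 without arrays 11, 12 and 66. Centring each array on its median gave 179 higher and 75 lower genes, 70.5% higher against 40.3%. For sleep loss, 922 genes became 583 with a random block, 316 with that block and no out-of-order arrays, and 2013 with array weights. For the difference of the steps, 0 genes became 4 without the out-of-order arrays, 7 there with the covariates, 4 there with a random block, and 17 with a fixed block of runs. Rora changed sign, from 0.13 to -0.0098, without the out-of-order arrays and with the covariates. Causes were not tested. No paired analysis was possible because the groups share no replicate numbers. Array signal has no read depth, and 4 to 9 mice per group limit small differences.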
